A study of Mus musculus with 2 samples.

Results

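Conventional CD4 T cells are the helper branch of the alpha-beta T cells. Their Cd4 co-receptor binds MHC class II on antigen-presenting cells, and they steer other cells through CD40 ligand and secreted cytokines. Naive cells recirculate through blood and lymph nodes under Ccr7 and S1pr1, memory cells can stay in a tissue such as the liver, and Foxp3 marks the regulatory branch. Here they were taken from 2 droplet single-cell RNA libraries of mouse liver tissue, 1 labelled SLC22A18-/- (the knockout-labelled library) and 1 labelled SLC22A18+/+ (the wild-type library). Slc22a18 is an imprinted gene for a membrane transporter, and the series title links its epigenetic change to a congenital syndrome with allergy and fatty liver, through beta-catenin and the factor Ascl2. The labels do not state strain, age, sex, how many animals were used or which bases were deleted. With 1 library for each genotype there were no replicates. Each ratio below therefore carries an exact 95% interval that covers counting error only, no test of genotype was run, and genotype, animal and tissue preparation cannot be told apart.

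The members were barcodes with at least 300 genes and at most 20% mitochondrial UMIs (unique molecular identifiers, 1 per captured RNA molecule). Each had at least 2 UMIs over Cd3d, Cd3e and Cd3g, at least 1 of Cd4, none of Cd8a, Cd8b1, Zbtb16, Ncr1, Cd79a and Clec4f, at most 1 over Mki67 and Top2a, and at most 1 of Stab2. In all, 84 of 24537 deposited barcodes met the rule, 32 of 11741 in the knockout-labelled library and 52 of 12796 in the wild-type library. They held 173454 and 288471 UMIs, with medians of 5485.5 and 5233 UMIs per cell and medians of 3.67% and 3.76% mitochondrial UMIs. The gate stands close to its limits at Cd4: of the members, 23 of 32 and 28 of 52 had a single Cd4 UMI, and 98 and 136 T cells that met every other limit had none. A Cd4 UMI was found in 2 of 409 and 1 of 581 B cells, which should lack it. Fewer barcodes lay just outside the other limits: 6 and 10 had a Cd3 sum of 1, 2 and 5 had 1 Zbtb16 UMI, and 2 and 2 had 1 Cd8 UMI. The libraries had 38 barcodes in common, of which 0 belonged to members.

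The members carried T cell markers, and Cd40lg set them apart from CD8 T cells. The Cd3 genes and Cd4 chose the cells, so their levels are a description only, but Icos, Cd28, Trac and Cd40lg were not used. Icos, a costimulatory receptor of T cells, had a UMI in 20 of 32 members of the knockout-labelled library and 30 of 52 of the wild-type library, against 1 of 409 and 3 of 581 B cells. It marks T cells rather than the CD4 branch, since it was also found in 40 of 76 and 72 of 112 CD8 T cells and in 109 of 135 and 137 of 173 Zbtb16-positive T cells. Cd28, the receptor for the main costimulatory signal, was found in 31 and 45 members, and Trac, the constant region of the alpha chain, in 27 and 42. Counts per cell were low throughout: the median member held 1 Icos UMI in each library and the highest held 15 in each. Markers of other lymphocytes were low. The 11 NK and ILC1 markers, of which the gate itself set Ncr1 to 0, summed to 86.5 and 52 CPM (counts scaled to 1000000 of the members' UMIs).

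The targeted gene could not check the labels in these cells. Slc22a18 had 0 UMIs in the members of each library, where 3 UMIs would have come to 17.3 CPM in the knockout-labelled and 10.4 CPM in the wild-type library. Over all kept barcodes it stood at 21.8 CPM in the knockout-labelled library and 24.5 CPM in the wild-type library. A 3′ tag outside a deleted part checks nothing, and the deleted part is not given. Ascl2, the transcription factor of the title, also had 0 UMIs in both groups of members.

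CD4 T cells made up 0.279% of the kept barcodes of the knockout-labelled library (exact binomial interval 0.191% to 0.394%) and 0.418% of those of the wild-type library (0.313% to 0.548%). The ratio of the shares was 0.668 (0.430 to 1.04, normal interval on the log scale), an interval that includes 1. Shares of other gates were also lower in the knockout-labelled library, with ratios of 0.736 (0.551 to 0.984) for CD8 T cells, 0.764 (0.675 to 0.865) for B cells and 0.862 (0.781 to 0.952) for the whole T cell gate. Among T cells with a Cd4 or a Cd8 UMI, the Cd4-only cells were 29.1% of 110 in the knockout-labelled library (20.8% to 38.5%) and 31.0% of 168 in the wild-type library (24.1% to 38.5%). With at least 2 Cd4 UMIs required, the ratio of shares was 0.407 (0.189 to 0.875), an interval that excludes 1, and 9 cells of the knockout-labelled library and 24 of the wild-type library remained.

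**Figure D1:**
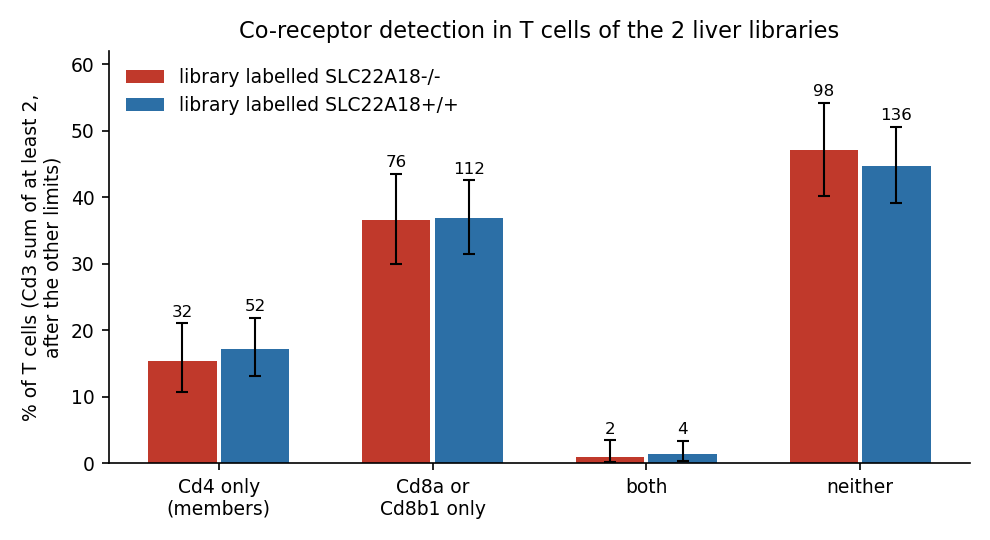
Bars give the percent of T cells (a Cd3 sum of at least 2, with the other limits of the gate met) in which Cd4 alone, Cd8a or Cd8b1 alone, both or neither had a UMI, with the cell count above each bar and exact 95% binomial intervals. The 32 and 52 Cd4-only cells are the members, and in each category the intervals of the 2 libraries overlap.

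Most members carried the genes of recirculating cells. Cells with no Foxp3 and with at least 1 UMI of Ccr7, the receptor for lymph node chemokines, were 23 of 32 in the knockout-labelled library (71.9%) and 43 of 52 in the wild-type library (82.7%). After each cell was thinned to 4247 UMIs, with 5 and 12 shallower members left out, they were 21 of 27 (77.8%) and 32 of 40 (80%). Among Zbtb16-positive T cells, Ccr7 was found in 5 of 135 and 14 of 173 before thinning. Lef1, a transcription factor of naive T cells and a partner of beta-catenin, was found in 29 of 32 and 48 of 52 members, with medians of 8.5 and 7 UMIs per cell. Satb1, a chromatin organizer of T cells, had a median of 15 UMIs per cell in each library. The lymph node egress receptor S1pr1 stood at 444 CPM in the knockout-labelled library and 440 CPM in the wild-type library, and the interleukin 7 receptor Il7r at 675 and 662 CPM. For both receptors the levels in the 2 libraries differed by less than their counting intervals.

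Members with no Foxp3 or Ccr7 and with a UMI of Cxcr6, Cxcr3 or Ccl5, genes of effector and tissue cells, were 6 of 32 in the knockout-labelled library (18.8%, exact interval 7.21% to 36.4%) and 3 of 52 in the wild-type library (5.77%, 1.21% to 15.9%). After thinning they were 4 of 27 and 1 of 40, and the intervals overlap. The cell of 3728 UMIs in the knockout-labelled library and that of 2235 UMIs in the wild-type library entered by 1 Ccl5 UMI alone. These held 25 and 9 UMIs of Satb1 and 3 and 5 UMIs of Lef1. Ccl5 was also found in 27 of 409 and 46 of 581 B cells. A single Ccl5 UMI therefore need not mark an effector or tissue cell. Cxcr6, a homing receptor of liver-resident lymphocytes, had 15 UMIs in 4 of 32 members of the knockout-labelled library and none in the 52 of the wild-type library. Against the floor of 3 UMIs it was at least 8.32-fold higher in the knockout-labelled library, but its summed UMIs fell short of the 20 needed for the comparison across genes. The 4 cells held 6, 5, 3 and 1 UMIs, and the 3 with more than 1 had no Ccr7 UMI. Cxcr6 was found in 1.22% of the B cells of the knockout-labelled library and 0.861% of those of the wild-type library. In the CD8 T cells of the same libraries it was detected in 20 of 76 and 16 of 112 cells.

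These few cells differed among themselves. One of 5556 UMIs in the knockout-labelled library held 8 UMIs of Il17a, the cytokine of T helper 17 cells, with 18 of the checkpoint receptor Ctla4, 12 of Id2, 11 of Rora, 13 of Rgs1, 8 of Tmem176b, 7 of Cd40lg and 3 of Cxcr6. It was the only member of either library with an Il17a UMI. A different cell, of 3687 UMIs, held 10 UMIs of Gzmb, a granzyme of killer cells, with 8 of Il2rb, 7 of Ly6c2, 6 of Cxcr6, 4 of Klrb1c and 4 of Nkg7. Another, of 6588 UMIs, held 15 of Icos, 9 of Ccl5, 6 of Nkg7, 5 of Cxcr6 and 3 of Tbx21, the T helper 1 factor. One more, of 4467 UMIs, held 61 of the 71 Ccl5 UMIs of all members of that library, together with 15 of Ctla4, 12 of Tox, 5 of Maf and 5 of Ikzf2. In the wild-type library the cell with the most Ccl5, 14 UMIs, also held 38 of Stat4, 22 of Nr4a2, 15 of Icos, 10 of Cd40lg, 8 of Il18r1 and 4 of Ifng.

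Cells with a Foxp3 UMI were seen in the wild-type library alone, at a depth that cannot settle a difference. Foxp3 had 0 UMIs in 32 members of the knockout-labelled library, which allows a share of cells with a UMI of up to 9.38% by the floor of 3 counts (10.9% by the exact interval) and sets no limit on cells that express it, and was found in 3 of 52 of the wild-type library (5.77%, exact interval 1.21% to 15.9%). After thinning these were 0 of 27 and 2 of 40. Among B cells it was found in 1 of 409 and 0 of 581. The 3 Foxp3 cells held 1, 3 and 2 Foxp3 UMIs, and each also held Ctla4 (9, 10 and 16 UMIs), Izumo1r (2, 4 and 7 UMIs) and Icos (6, 12 and 7 UMIs). The cell with 1 Foxp3 UMI, of 5614 UMIs in all, also had the highest share of hepatocyte marker UMIs of any member, 5.22%. Doublet calling, described below, marked 2 members of the wild-type library. Beyond that, whether this barcode holds RNA of more than 1 cell was not tested. Izumo1r encodes folate receptor 4, a surface marker of regulatory and anergic CD4 T cells in mice. The deepest, of 10984 UMIs, also held 78 UMIs of Ikzf2 (Helios), 17 of Nt5e (CD73), 12 of Itgb8 and 6 of Tnfrsf9. Ctla4 was not particular to them, since 17 of the 49 members of the wild-type library without Foxp3 and 7 of the 32 of the knockout-labelled library had at least 1 UMI of it.

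**Figure D2:**
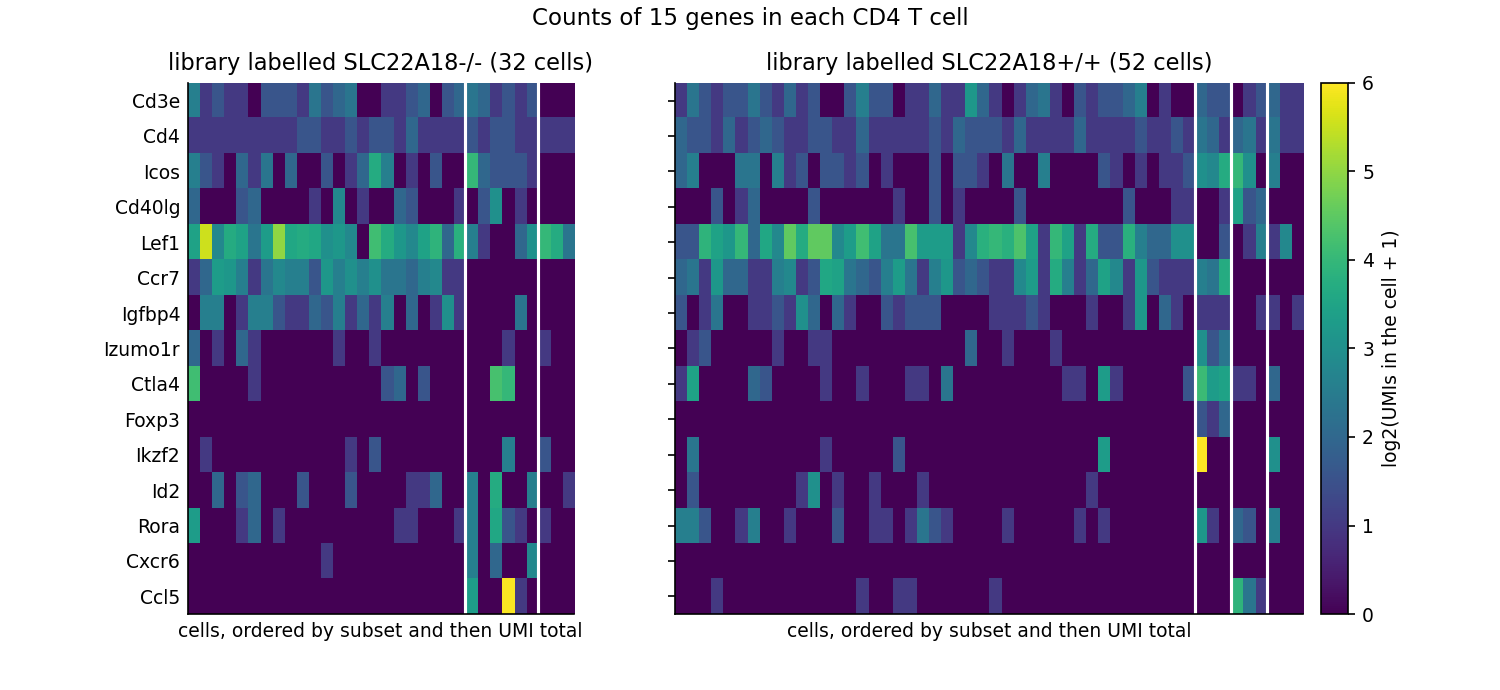
Each column is 1 member and each row 1 gene, coloured by log2(UMIs + 1) up to 6, for the knockout-labelled library on the left and the wild-type library on the right. White lines separate, from left to right, cells with Ccr7 and no Foxp3, cells with Foxp3 (wild-type library only), cells with Cxcr6, Cxcr3 or Ccl5, and the remaining cells, and Lef1 fills most of the first block in each library.

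The main cytokines of the type 2 response, the arm named by the allergy in the title, were not detected. Il4, Il5 and Il13 and the receptor gene Il1rl1 had 0 UMIs in the members of each library. Of the 18 genes of the type 2 list 10 had 0 UMIs in the knockout-labelled library and 13 in the wild-type library. Areg had 6 UMIs, Ccr4 2 and Ccr8 1, each in 1 cell of the knockout-labelled library, and 0 in the wild-type library. Gata3, the type 2 master factor that all CD4 T cells express at some level, had 15 UMIs in 10 of 32 members of the knockout-labelled library and 22 UMIs in 14 of 52 of the wild-type library, a CPM ratio of 1.13 (0.547 to 2.29). Il17f and Il21 were at 0 in both as well.

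The members were next set beside CD8 T cells of the same library (76 and 112 cells), which differ in the co-receptor used to gate them. Genes were compared where the members or the CD8 T cells held at least 20 UMIs in each library, and were counted where the CPM ratio reached 2 with an interval excluding 1 in both libraries. An exact paired test over 2 libraries cannot go below p = 0.5, so the counts describe these libraries. Of 4491 genes, 36 were higher in CD4 T cells (0.802%) and 108 lower (2.4%). Cd40lg, the ligand by which helper cells activate B cells and macrophages, had 32 UMIs in CD4 T cells and 1 UMI in CD8 T cells of the knockout-labelled library (ratio 84.1, 14.1 to 3426). In the wild-type library it had 34 UMIs in CD4 T cells and 3 UMIs in CD8 T cells (ratio 28.7, 9.01 to 146). It lies on chromosome X from 57212143 to 57224042 (GRCm38, GENCODE vM21).

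Others among the 12 largest ratios were St8sia6, Sgms1 and St8sia1. St8sia6, an alpha-2,8-sialyltransferase, had 50 UMIs in CD4 T cells and 17 UMIs in CD8 T cells of the knockout-labelled library (288 and 37.3 CPM, ratio 7.73, 4.38 to 14.3). The wild-type library held 114 UMIs in its CD4 T cells and 7 UMIs in its CD8 T cells (395 and 9.60 CPM, ratio 41.2, 19.4 to 105). St8sia1, which makes the ganglioside GD3, was 3.20-fold and 3.79-fold higher in CD4 T cells. Sgms1, sphingomyelin synthase, was 5.26-fold and 4.16-fold higher. None of the 16 lipid and glucose metabolism genes compared passed the size rule in either direction.

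Of the lists of helper cell genes 1 of 8 CD4 lineage genes (Cd40lg), 1 of 9 regulatory genes (Izumo1r), 1 of 10 follicular helper genes (Izumo1r) and 1 of 16 naive genes (Igfbp4) were higher than in CD8 T cells, and 1 regulatory gene, Il2rb, was lower. Izumo1r had ratios of 3.94 (1.48 to 11.1) in the knockout-labelled library and 4.33 (2.15 to 9.06) in the wild-type library, although the 3 Foxp3 cells hold 13 of its 24 UMIs in the wild-type library. Gata3 had ratios of 2.19 (1.03 to 4.6) and 3.09 (1.58 to 6.11). Igfbp4, an insulin-like growth factor binding protein found in naive CD4 T cells of mice, had ratios of 4.72 (3.05 to 7.4) and 2.11 (1.48 to 3.01). The others among the 12 largest were Tmem64, A630023P12Rik, Hspa4l, Slc49a4, Hspbap1, Trib2 and Crlf3, with ratios between 2.73 and 12.5 in the knockout-labelled library and between 2.82 and 5.39 in the wild-type library. Icos (ratios 1.59 and 1.28) and Cd28 (1.56 and 1.53) did not reach the size rule.

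Killer cell genes were lower in CD4 T cells. Of 13 cytotoxic genes compared, 11 were lower in CD4 T cells in both libraries: Gzma, Gzmb, Prf1, Nkg7, Ccl3, Ccl4, Ccl5, Ctsw, Klrd1, Klrk1 and Serpinb9. The list's median log2 ratio was -3.19 in the knockout-labelled and -4.25 in the wild-type library, where the median over all 4491 genes was -0.01 in each. Nkg7, a protein of cytotoxic granules, had 15 UMIs in CD4 T cells and 286 UMIs in CD8 T cells of the knockout-labelled library. The wild-type library held 3 UMIs of it in CD4 T cells and 502 UMIs in CD8 T cells. Ccl5, a chemokine of effector cells, had 71 UMIs against 2381 UMIs in the knockout-labelled library and 24 UMIs against 2748 UMIs in the wild-type library, CD4 before CD8 T cells. Xcl1 had 2 against 61 UMIs and 0 against 176 UMIs in the same order.

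Of the T helper 1 list 5 of 11 genes were lower than in CD8 T cells (Tbx21, Il12rb2, Ccl5, Il18rap and Runx3), and of the memory list 6 of 20 (among them S100a4, S100a6, Lgals1, Ahnak and Rgs1). The NK receptor genes Klra1, Klra5, Klra7 and Klre1 had 0 or 1 UMIs in CD4 T cells. The Klra genes are close paralogues, so the counts of single Klra genes are uncertain. CD8 T cells of the liver can include cells with NK receptors, and in these libraries Klra7 had a UMI in 8 of 76 and 9 of 112 of them.

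**Figure D3:**
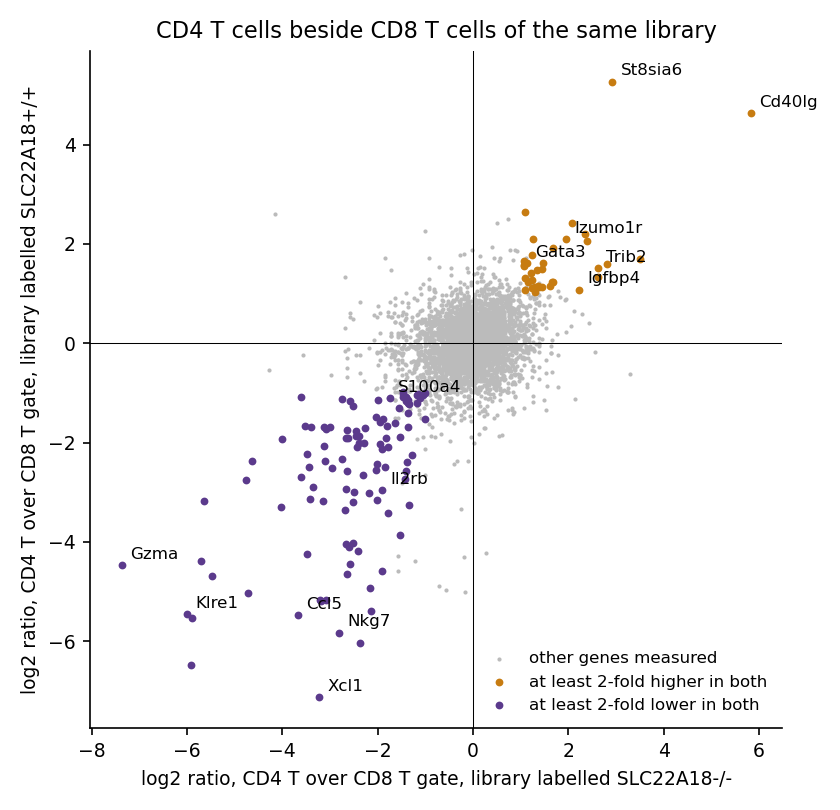
Each point is 1 of 4491 genes, placed by its log2 CPM ratio of CD4 T over CD8 T cells in the knockout-labelled library (horizontal) and in the wild-type library (vertical). Orange points are the 36 genes at least 2-fold higher in both and purple points the 108 at least 2-fold lower in both, with Cd40lg and St8sia6 at the upper end.

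Promoter windows of 4 of these genes show a short motif that was unevenly spread between the 2 groups. They are RefSeq sequences of GRCm38.p6, each 300 bases with 250 before and 50 after the gene's start, written 5′ to 3′ on the gene's strand. Capitals mark TGTGGT or its reverse complement ACCACA, the core letters bound by Runx proteins. Izumo1r (chr9:14903718-14904017, minus strand) is the only gene higher in CD4 T cells whose window holds the motif. Gzmb (chr14:56262285-56262584, minus strand), Nkg7 (chr7:43436888-43437187, plus strand) and Xcl1 (chr1:164935473-164935772, minus strand) are 3 of the 26 lower genes that hold it, of 81 with a window.
Izumo1r: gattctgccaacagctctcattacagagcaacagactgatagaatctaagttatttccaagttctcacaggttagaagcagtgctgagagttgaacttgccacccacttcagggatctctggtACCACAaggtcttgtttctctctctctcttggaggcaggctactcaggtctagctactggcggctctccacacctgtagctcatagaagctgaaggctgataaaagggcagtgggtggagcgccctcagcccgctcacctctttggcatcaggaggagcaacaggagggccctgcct
Gzmb: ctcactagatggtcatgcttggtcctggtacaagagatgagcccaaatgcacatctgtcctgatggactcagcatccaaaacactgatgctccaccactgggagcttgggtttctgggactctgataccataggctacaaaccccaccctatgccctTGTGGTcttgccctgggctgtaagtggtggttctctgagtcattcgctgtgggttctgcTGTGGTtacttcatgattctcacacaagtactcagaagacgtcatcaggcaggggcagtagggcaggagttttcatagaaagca
Nkg7: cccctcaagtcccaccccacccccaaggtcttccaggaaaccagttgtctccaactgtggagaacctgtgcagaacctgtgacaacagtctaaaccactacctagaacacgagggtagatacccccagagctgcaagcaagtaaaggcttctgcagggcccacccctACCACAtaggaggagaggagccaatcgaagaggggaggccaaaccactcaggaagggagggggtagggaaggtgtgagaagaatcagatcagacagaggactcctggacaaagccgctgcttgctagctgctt
Xcl1: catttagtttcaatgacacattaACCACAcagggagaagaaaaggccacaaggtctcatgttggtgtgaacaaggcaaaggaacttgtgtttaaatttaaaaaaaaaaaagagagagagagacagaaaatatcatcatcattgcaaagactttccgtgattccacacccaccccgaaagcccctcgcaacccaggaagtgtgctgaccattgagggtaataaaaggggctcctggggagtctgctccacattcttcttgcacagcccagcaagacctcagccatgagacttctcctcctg

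The motif begins 127 bases before the start of Izumo1r, 93 and 34 before that of Gzmb, 83 before that of Nkg7 and 227 before that of Xcl1. On either strand it occurs in 1 of 27 promoters of genes higher in CD4 T cells (3.7%), in 26 of 81 promoters of genes lower in them (32.1%), in 423 of 3604 promoters of the genes compared (11.7%) and in 16.9% of all 27025 promoters. Promoters were in the table for 7 of the 11 lower cytotoxic genes, and all 7 held it. Runx3 itself, a factor of the CD8 lineage, had 12 UMIs in CD4 T cells and 84 UMIs in CD8 T cells of the knockout-labelled library, and 17 UMIs and 142 UMIs in those of the wild-type library. For comparison GGAAA or TTTCC occurs in 59.3% of the higher, 56.8% of the lower and 59.7% of the compared genes' promoters. CTTTGA or TCAAAG, the letters bound by Tcf7 and Lef1, occurs in 11.1%, 12.3% and 10.8%. None of the 3 motifs contains another. The genes were chosen by their counts and the motifs after their values were seen, and a match is a run of letters. These shares are therefore a description with no test. Binding was not measured, and a role of Runx3 in these genes was not tested. Cd40lg and Tmem64 among the higher genes, and Ccl5 and Ccl4 among the lower, are named only.

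Beside the Zbtb16-positive T cells of the same libraries (135 and 173 cells), innate-like T cells of the liver, 135 of 6457 genes were higher in CD4 T cells (2.09%) and 374 lower (5.79%). The naive and recirculating list held 13 of 16 genes that were higher in both libraries, with a median log2 ratio of 2.16 and 1.57. Ccr7 had 105 UMIs in CD4 T cells and 16 UMIs in Zbtb16-positive T cells of the knockout-labelled library (ratio 32.8, 19.3 to 59.4), and 197 and 52 UMIs in the wild-type library (ratio 14.1, 10.3 to 19.5). Tissue and innate genes ran the other way: 11 of 20 genes of the memory list, 9 of 12 of the T helper 1 list and 11 of 13 of the cytotoxic list were lower in CD4 T cells. Rora had ratios of 0.216 (0.151 to 0.300) and 0.227 (0.169 to 0.300). Icos was lower as well, with ratios of 0.437 (0.338 to 0.559) and 0.390 (0.317 to 0.476). Cd40lg did not reach the size rule, with ratios of 1.38 and 0.762. Against B cells (409 and 581), 339 of 8350 genes were higher in CD4 T cells (4.06%) and 584 lower (6.99%), and 15 of the 16 receptor complex genes compared were higher in both libraries.

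Between the libraries, few genes passed the size rule in CD4 T cells, and at these counts genes that did not pass need not be alike. Of 3547 genes with at least 20 UMIs over both libraries and outside possible free RNA, 87 were at least 2-fold higher in the knockout-labelled library with an interval excluding 1 (2.45%) and 86 at least 2-fold lower (2.42%). The median log2 ratio over these genes was 0.01. With TMM factors in place of UMI totals the split was 62 higher and 130 lower, and with median-of-ratios factors 73 higher and 105 lower. Removing 1 cell ended many calls. Without the member with the most UMIs of the gene in the higher library, 18 of the 87 and 38 of the 86 remained. Here only the ratio and interval limits were applied again, not the minimum of 20 UMIs or of detection. The removal lowers the higher library alone, so a call near the limits can end although its UMIs are spread. Stat6 was such a case, found in 15 of 52 members of the wild-type library with at most 2 UMIs in a cell. In CD8 T cells of the same 2 libraries 1.72% of the genes were higher and 1.46% lower, in Zbtb16-positive T cells 1.41% and 1.3%, and in B cells 0.455% and 0.416%. The gates hold different numbers of cells and UMIs.

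**Figure D4:**
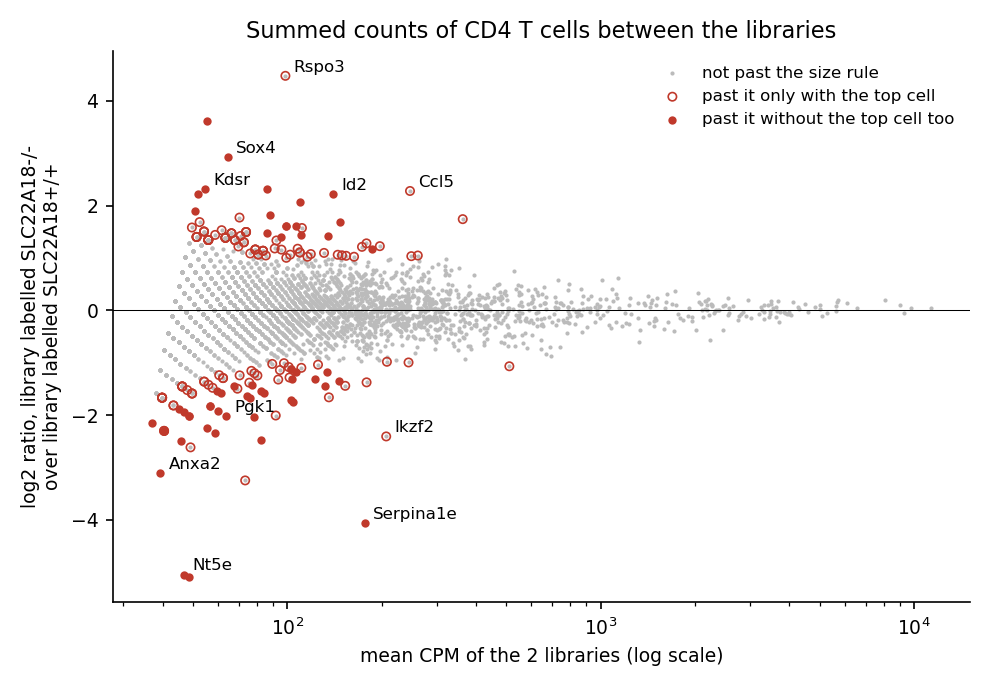
Each point is 1 of 3547 genes, with the mean CPM of both libraries on a log axis and the log2 ratio of the knockout-labelled over the wild-type library on the vertical axis. Open red circles passed the size rule only with the cell holding most UMIs of the gene. Filled red points (18 higher, 38 lower) also met the ratio and interval limits without it.

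The 18 differed in how many cells carried them. Id2, an inhibitor of E protein transcription factors that favours effector over naive states, had 40 UMIs in 12 of 32 members of the knockout-labelled library and 14 UMIs in 7 of 52 of the wild-type library (231 and 48.5 CPM, ratio 4.75, 2.53 to 9.46). Without the top cell the ratio was 3.33 (1.69 to 6.84). Rgs1, a regulator of G protein signals often found in tissue T cells, had 31 UMIs in 8 members of the knockout-labelled library and 12 UMIs in 9 of the wild-type library (ratio 4.30, 2.15 to 9.19), with 13 and 7 of the 31 in 2 cells. Kdsr, an enzyme of sphingolipid synthesis, had 16 UMIs in 13 members and 5 UMIs in 5 members (ratio 5.32, 1.86 to 18.6). Sox4, a transcription factor induced by TGF-beta, had 20 UMIs in 5 members and 4 UMIs in 4 members (ratio 8.32, 2.79 to 33.5), with 9 and 6 of the 20 in 2 cells. Ppp1r12c, Ipmk, Fam168a, Lmnb1 and Ccnd2, the G1 cyclin D2, also passed without the top cell. So did Pakap (ENSMUSG00000038729), with 18 UMIs against 2 UMIs, whose symbol stands on 2 identifiers in the files and whose count is uncertain.

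In other genes 1 cell held most of the UMIs. Rspo3, a Wnt amplifier of endothelial and stromal cells, had 33 UMIs in the knockout-labelled library against 2 UMIs in the wild-type library, but 32 of the 33 lay in 1 barcode. That barcode also had the highest share of endothelial marker UMIs, 0.441% beside a median of 0.0417% in the members of its library. Doublet calling marked 0 members of this library. Beyond that, whether the barcode holds RNA of more than 1 cell was not tested. Ccl5 had a ratio of 4.92 (3.06 to 8.17) with the cell of 61 UMIs and 0.693 (0.296 to 1.5) without it, when its log2 ratio was -0.49. Fewer members held it in the knockout-labelled library (3 of 32) than in the wild-type library (8 of 52). In the other direction Ikzf2 had 11 UMIs against 101 UMIs, with 78 of the 101 in 1 Foxp3 cell. Nt5e had 0 UMIs against 27 UMIs, 17 of them in the same cell, and was at least 5.41-fold lower in the knockout-labelled library; without that cell it still passed. In that library the S100a6 count was 6 UMIs against 43 UMIs in the wild-type library, of which 24 lay in 1 cell.

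Of the 38 genes lower in the knockout-labelled library also without the top cell, a few are given with their counts; they were picked from the calls and make no group. Pgk1, a glycolytic enzyme, had 4 UMIs in 4 of 32 members of the knockout-labelled library and 30 UMIs in 22 of 52 of the wild-type library (ratio 0.222, 0.0568 to 0.629). Psmb6, a proteasome subunit, had 5 UMIs against 26 UMIs and Uqcr10, a subunit of respiratory complex III, 10 UMIs against 43 UMIs. The autophagy genes Atg12 and Atg16l1 had 3 UMIs against 23 UMIs and 3 UMIs against 22 UMIs. Anxa2 had 1 UMI against 21 UMIs.

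Summed hepatocyte RNA was lower in the knockout-labelled library, while the median cell was close between the libraries. Of 11 hepatocyte markers compared, Serpina1a, Serpina1b and Fabp1 were lower in the knockout-labelled library and none was higher. The list of 14 summed to 5938 CPM in the knockout-labelled library and 7963 CPM in the wild-type library (ratio 0.746, 0.692 to 0.803). It took between 0.213% and 1.92% of a member's UMIs in the knockout-labelled library and between 0.219% and 5.22% in the wild-type library, with medians of 0.597% and 0.611%. Fabp1, which carries fatty acids in hepatocytes, had 57 UMIs against 200 UMIs, with 122 of the 200 in 1 cell, and a ratio of 1.22 (0.848 to 1.73) without that cell. Serpina1e had 3 UMIs against 97 UMIs, 79 of them in 1 cell, and a ratio of 0.277 (0.0523 to 0.949) without it. Over all kept barcodes Serpina1e stood at 80.3 CPM in the knockout-labelled library and 224 CPM in the wild-type library. Thrsp, a lipogenic gene of hepatocytes, had 0 UMIs against 28 UMIs, 16 of them in the cell that held 79 UMIs of Serpina1e. With the 2 members called as doublets left out (both in the wild-type library), 82 genes were higher and 73 lower. The part of hepatocyte RNA in the other lower genes was not tested.

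Slc15a2 differed between the libraries in CD4 T cells and in every other gate examined. This gene encodes a proton-coupled peptide transporter. It was noticed after its values were seen, and its 16 UMIs fell short of the 20 needed for the comparison across genes. It had 16 UMIs in 10 of 32 members of the knockout-labelled library, with at most 3 in a cell, and 0 UMIs in the 52 members of the wild-type library, at least 8.87-fold higher against the floor of 3 UMIs per library. A UMI of it was found in 31 of 76 and 0 of 112 CD8 T cells, in 40 of 135 and 0 of 173 Zbtb16-positive T cells, and in 169 of 409 and 4 of 581 B cells. Over all kept barcodes it stood at 66.3 CPM in the knockout-labelled library and 0.455 CPM in the wild-type library. It lies on chromosome 16 from 36750177 to 36784962, away from Slc22a18 on chromosome 7.

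The other genes of the imprinted neighbourhood of Slc22a18 were sparse. Of its 19 genes 4 could be compared, and 1 passed the size rule. Tnfrsf26, a receptor of the TNF family at 143607659 to 143628722 on chromosome 7, had 4 UMIs in 4 of 32 members of the knockout-labelled library and 28 UMIs in 19 of 52 of the wild-type library (ratio 0.238, 0.0606 to 0.679), and 0.266 (0.0673 to 0.771) without the top cell. In the other gates, which share these 2 libraries, its ratio was 1.26 (0.796 to 1.98) in CD8 T cells, 0.446 (0.183 to 0.988) in Zbtb16-positive T cells and 0.715 (0.357 to 1.37) in B cells. Nap1l4, Kcnq1ot1 and Tspan32 had log2 ratios of -0.07, -0.22 and -0.23. Phlda2, H19 and Igf2 had 0 UMIs in the members of each library.

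The lists of CD4 T cell biology held few calls each, beside a background of 2.45% higher and 2.42% lower. In some short lists these few made a share above that background. Of 9 CD4 lineage genes Ikzf3 was higher, with a list median of 0.13, and its log2 ratio lay between -0.22 and 2.16 under the alternatives described below. Of 18 genes of the receptor complex none passed the size rule, and the median log2 ratio was -0.04. Of 16 naive and recirculating genes none passed, with a median of -0.14. Klf2, which drives S1pr1, had a ratio of 0.773 (0.672 to 0.887). Of 17 memory and tissue genes Rgs1 and Bhlhe40 were higher and S100a6 lower, with a median of -0.36. The log2 ratio of Bhlhe40 lay between 0.73 and 1.82 under the alternatives. Of 8 regulatory genes Il2rb, a subunit of the interleukin 2 receptor, was higher and Ikzf2 and Nt5e were lower. Of the 16 Il2rb UMIs in the knockout-labelled library 8 lay in 1 cell and 15 in the members with Cxcr6, Cxcr3 or Ccl5, and without the top cell its ratio was 1.48 (0.496 to 4.32). None of 4 T helper 17 genes, 10 follicular helper genes and 12 interferon response genes passed. Ifi27l2a, an interferon-induced gene, had 83 UMIs against 248 UMIs and a ratio of 0.557 (0.429 to 0.716), just short of the limit.

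In the beta-catenin list 1 gene passed the size rule. Of 13 genes compared Ccnd2 was higher, with 34 UMIs in 17 of 32 members of the knockout-labelled library and 21 UMIs in 16 of 52 of the wild-type library (ratio 2.69, 1.52 to 4.88). The median log2 ratio was 0.07, with single genes between -0.66 and 1.42. All 21 genes of the list summed to 4399 CPM in the knockout-labelled and 3841 CPM in the wild-type library (ratio 1.15, 1.04 to 1.26). Under 13 alternatives in processing, described below, the list median lay between -0.11 and 0.37, with the other sign in 2. The sum was not computed again under them. Lef1 had a ratio of 1.25 (1.07 to 1.45), and 1.06 (0.910 to 1.24) without its top cell of 46 UMIs. Tcf7, its partner factor, had 96 UMIs against 190 UMIs and a ratio of 0.840 (0.650 to 1.08). Of 4 genes of the type 2 list Il2rb was higher and Stat6, the signal carrier of the interleukin 4 receptor, lower: 3 UMIs in 3 of 32 members of the knockout-labelled library and 18 UMIs in 15 of 52 of the wild-type library (ratio 0.277, 0.0523 to 0.949). Without its top cell Stat6 had a ratio of 0.312 (0.0582 to 1.09), whose interval includes 1. In CD8 T cells its ratio was 0.711 (0.328 to 1.45), in Zbtb16-positive T cells 0.473 (0.272 to 0.795) and in B cells 0.938 (0.709 to 1.24).

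**Figure D5:**
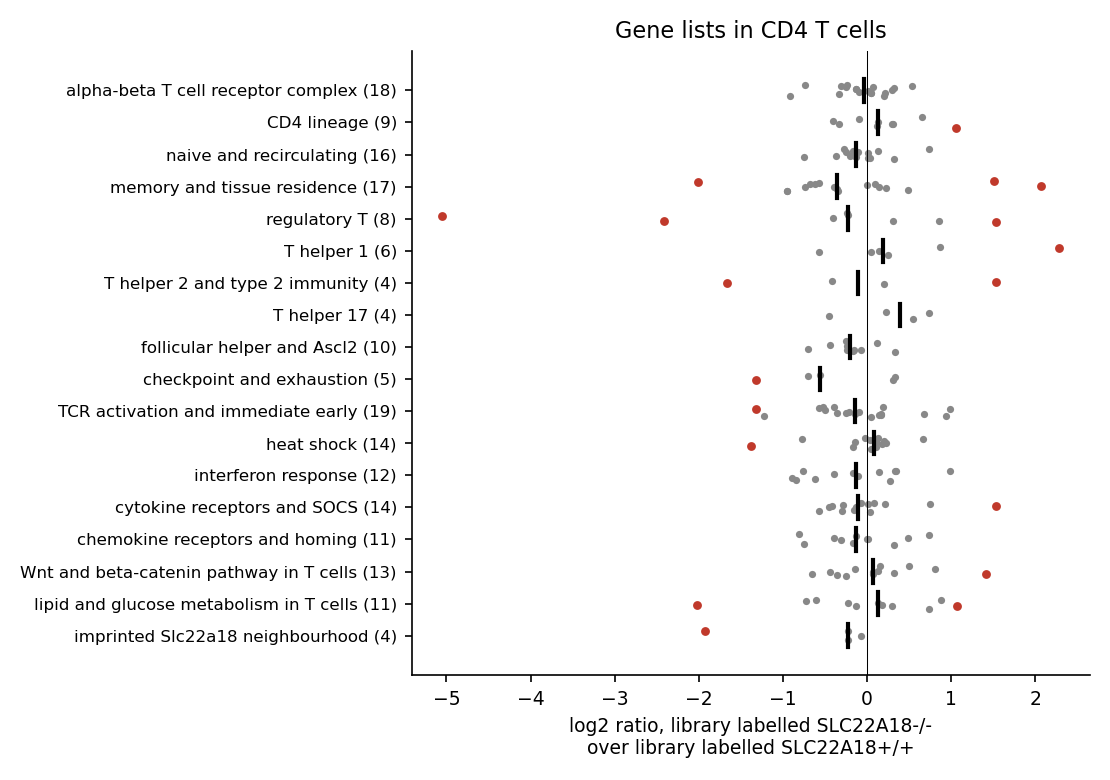
Each point is 1 gene of a list with at least 4 genes compared, placed by the log2 CPM ratio of the knockout-labelled over the wild-type library in CD4 T cells, with the number of genes compared after each list name. Red points passed the size rule and black bars are list medians, which lie between -0.56 (checkpoint and exhaustion) and 0.39 (T helper 17) against 0.01 over all 3547 genes.

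Receptor segments were caught in few members, since the libraries read the 3′ ends of the RNA. A beta-chain variable segment was found in 0 of 32 members of the knockout-labelled library and 8 of 52 of the wild-type library, with 5 segments seen and at most 1 in a cell. In CD8 T cells it was found in 17 of 76 and 11 of 112. Trbc1 and Trbc2, the 2 beta-chain constant regions, are near-identical copies and reads may be split between them. Both were found in 14 and 27 members, Trbc2 alone in 15 and 20, and Trbc1 alone in 2 and 4.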

How the data were processed

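Liver cells were profiled in droplets with a Chromium 3′ v3 kit, per the labels' protocols. The submitters' processing notes list STAR and mm10, and version 8.0.1 of Cell Ranger stands in the file headers. The authors deposited unnormalized UMI counts for each gene in each barcode. Genes were placed with GENCODE vM21 on GRCm38, where 32012 of 33696 identifiers were found.

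UMIs of the members were summed per library (all barcodes held 103478998 UMIs in the knockout-labelled and 105556354 in the wild-type library) and scaled to CPM. The size rule asked for 20 or more summed UMIs, a 2-fold or larger CPM ratio either way, a Clopper-Pearson 95% interval that left out 1, and detection in 5% or more of the members of the higher library. It left out 90 genes whose member CPM was below 25% of the CPM over all kept barcodes in each library, as possible free RNA, which was not subtracted elsewhere. Log2 ratios add 0.5 to each sum. Intervals and the floor of 3 counts cover counting error only. The computation was tested on simulated sums with known folds and counting error only. That test does not cover genes with most of their UMIs in 1 cell. Scrublet in scanpy 1.11.5, at its automatic thresholds, marked 304 barcodes (2.65%) of the knockout-labelled and 429 (3.45%) of the wild-type library as doublets; these were kept in the main values. TMM factors came from edgeR 4.0.16 in R 4.3.3. Sums and intervals used numpy 2.4.6, scipy 1.17.1 and pandas 2.3.3.

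Named genes were Slc22a18 and Ascl2, the 12 largest ratios each way between the libraries and against CD8 T cells, list members past the size rule or with the most UMIs, genes of the gate, and abundant genes of the helper lists. Other genes, the cells described singly and the motifs were chosen after their values were seen. The members and lists were chosen with earlier results of these data known. A few genes, and the splits of cells that used them, are not reported here.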

Additional observations from a re-analysis of the deposited data

Results flagged for a closer look

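A few genes passed the size rule one way in CD4 T cells and the other way in another gate of the same 2 libraries, and none of these differences was tested. Of 83 higher genes also compared in CD8 T cells 2 were lower there, beside 1.46% of all genes. Of 79 lower genes 1 was higher there, beside 1.72%. In Zbtb16-positive T cells these were 3 of 85 beside 1.3% and 1 of 80 beside 1.41%. In B cells they were 0 of 79 beside 0.416% and 1 of 79 beside 0.455%. Genes called in the same direction, higher before lower, were 0 and 0 in CD8 T cells, 1 and 2 in Zbtb16-positive T cells and 0 and 1 in B cells. Ratios below are of the knockout-labelled over the wild-type library. Fam168a had a ratio of 3.63 (1.71 to 8.21; 24 UMIs against 11 UMIs) in CD4 T cells and 0.355 (0.184 to 0.641; 14 UMIs against 63 UMIs) in CD8 T cells. Magi3 had 2.22 (1.08 to 4.66) in CD4 T cells and 0.488 (0.271 to 0.839) in CD8 T cells. Nt5e had a ratio of 0 in CD4 T cells, from 0 UMIs against 27 UMIs, and 3.34 (1.57 to 7.6) in CD8 T cells.

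Beside Zbtb16-positive T cells, Sox4 had a ratio of 8.32 (2.79 to 33.5) in CD4 T cells and 0.310 (0.0909 to 0.851) in the other gate. Myb had 3.24 (1.85 to 5.87) in CD4 T cells and 0.470 (0.212 to 0.969) there, and Rbms2 had 2.59 (1.04 to 6.78) and 0.429 (0.236 to 0.746) in the same order. Atg2b had 0.333 (0.0827 to 0.993) in CD4 T cells and 2.02 (1.26 to 3.3) in Zbtb16-positive T cells. S100a6 had 0.232 (0.0807 to 0.548) in CD4 T cells, where 24 of the 43 UMIs of the wild-type library lay in 1 cell, and 2 (1.47 to 2.75) in B cells.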

How the results depend on the processing

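No paired analysis was possible because each genotype has 1 library, and for the same reason no replicate could be left out. The ratio of the shares of CD4 T cells lay between 0.651 and 0.774 with a Cd3 sum of at least 3, at most 10% mitochondrial UMIs, no doublet calls, at most 5% other-cell marker UMIs, or the T cell gate as denominator. With at least 2 Cd4 UMIs it was 0.407 (0.189 to 0.875). Under the changed gates Foxp3 was found in 0% of the thinned members of the knockout-labelled library and in 4.76% to 5.26% of those of the wild-type library, beside 5% in the main values.

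The counts of 87 higher and 86 lower genes moved with the limits. They were 209 and 145 with no minimum of summed UMIs, 17 and 22 with a minimum of 50, and 155 and 137 at a ratio of 1.5. With TMM factors 130 genes were lower, and the median log2 ratio was -0.07. Without the cell holding most UMIs of each gene, a setting chosen after seeing the data, 19 were higher (18 of the 87 and 1 other) and 38 lower. With at least 2 Cd4 UMIs 61 and 88 were called, of which 13 and 18 were shared with the main calls. In cells with Ccr7 and no Foxp3, also chosen after seeing the data, 35 of 81 and 38 of 72 were shared.

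Of 743 values of named genes under the alternatives, 714 stayed within the counting interval, 25 moved beyond it and 4 were of genes past the size rule that changed sign. In all, 21 of the 62 genes had the other sign under at least 1 alternative, and only those 4 had passed the size rule. Without the top cell the log2 ratio was -0.49 for Ccl5, 0.28 for Fabp1 and -0.0031 for Rspo3. In cells with Ccr7 and no Foxp3 that of Ikzf3 was -0.22. Of 206 list medians 5 moved beyond the interval of the median, and 21 values over 12 of the 16 lists had the other sign, so the direction of those lists is not settled. The minimum of 20 UMIs was a choice.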
